A study of Mus musculus with 10 samples.

Results

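Type I interferon-stimulated antiviral genes were followed in whole YUMMER1.7 melanomas that grew for 10 days in Siah2 knockout mice (5 tumors) or wild-type mice (5 tumors). The set holds 36 genes chosen by name, out of the 24421 genes of the deposited table. All 36 had a value above 0 and were measured, as were 12926 genes in the whole table. YUMMER1.7 is a mouse melanoma line with a mutated Braf gene and without Cdkn2a, which carries many somatic mutations, and 100000 cells were injected under the skin of each mouse. The knockout was carried by the host mice (Siah2-/-), so it concerns the leukocytes, fibroblasts and vessels of the tumor. The injected cells came from the same line in both groups, and no source used here states their own Siah2 genotype. The strain labels start at C57Bl6 and count upward by sample to C57Bl15, as a spreadsheet fill does, and the background was read as C57BL/6 in every mouse. Age and sex of these mice are not given in the labels.

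Siah2, the RING-type ubiquitin ligase deleted in the knockout hosts, did not have a lower transcript level in the knockout group. Its score was 573, 739, 747, 490 and 610 in the tumors labelled Siah2 KO, against 391, 428, 407, 393 and 408 in the WT tumors (log2 difference 0.62, SE 0.11, adjusted p = 0.00104). The score, used throughout, is the authors' normalized read count of a gene, which they rounded to whole units. It covers the whole gene, so it does not check the deleted stretch, and every direction below rests on the labels. The tumors are therefore called KO-labelled and WT. Scores summed to between 15414758 and 16503134 per tumor. Values by tumor are listed in the order KO1, KO2, KO3, KO4 and KO5 for the KO-labelled tumors, then WT2 to WT6 for the WT tumors, by column name. The columns KO4 and KO5 carry no replicate number, since the sample titles number the knockout tumors otherwise.

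Type I interferons are secreted by cells that sense viral or misplaced nucleic acid, and they bind the receptor chains Ifnar1 and Ifnar2 on neighbouring cells. The receptor's kinases Jak1 and Tyk2 then act on STAT proteins, among them Stat2, which joins Irf9 in the complex ISGF3. This complex enters the nucleus, binds the interferon-stimulated response element (ISRE) in promoters and switches on the genes described here, whose products block viral entry, translation, replication and budding. In tumors the same program is known from dendritic cells, macrophages and cancer cells that respond to interferon, and interferon gamma induces part of it through another promoter element, the GAS site.

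Promoter sequences are shown because the ISRE is the textbook link between these genes and was not used to choose them. RefSeq promoter windows (GRCm38.p6, 250 bases before to 50 bases after the start site) were found for 27 members. The other 9, Rtp4, Parp9, Oas2, Mx2, Usp18, Ifi27l2a, Mx1, Parp14 and Oas1b, are only named. The ISRE core, searched as TTTCNNTTT on either strand, stood in the promoter of 19 of the 27 members (70.4%), against 12.1% of all 27025 genes with a window. The GAS site, searched as TTCNNNGAA on either strand, stood in 7 of the 27 (25.9%), against 9.55% of all genes, and an ISRE core overlapped a GAS match in Ifitm3 and Bst2. The stretches below lie around the core nearest to the start site in 7 members whose stretch lies wholly upstream of it. Each runs 5′ to 3′ on the strand of its gene, with ISRE cores in capitals. A core that lies on the opposite strand appears as its reverse complement. They come from chr4:156200855-156200903 (Isg15, minus strand), chr19:34640784-34640832 (Ifit1, plus), chr19:34583387-34583435 (Ifit3, plus), chr19:34607783-34607831 (Ifit3b, plus), chr5:120777705-120777753 (Oas3, minus), chr12:26456531-26456579 (Rsad2, minus) and chr8:71537567-71537615 (Bst2, minus).
Isg15: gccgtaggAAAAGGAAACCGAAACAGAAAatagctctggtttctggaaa
Ifit1: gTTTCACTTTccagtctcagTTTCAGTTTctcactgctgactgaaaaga
Ifit3: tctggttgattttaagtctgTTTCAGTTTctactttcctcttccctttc
Ifit3b: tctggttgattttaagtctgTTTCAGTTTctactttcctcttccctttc
Oas3: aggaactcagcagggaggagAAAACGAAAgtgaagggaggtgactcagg
Rsad2: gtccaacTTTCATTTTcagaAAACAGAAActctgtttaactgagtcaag
Bst2: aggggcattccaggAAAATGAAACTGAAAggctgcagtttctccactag

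In Isg15, 3 cores overlap into a single run whose nearest core begins 65 bases before the start site. Bst2 holds an overlapping pair whose nearest core begins 123 bases before it. The stretches of Ifit3 and Ifit3b are the same, letter for letter. No core was found in the windows of Ifitm1, Ifit2, Herc6, Oasl2, Parp12, Dtx3l, Ifi35 and Cmpk2. The 19 members with a core had a median log2 difference between the groups of 0.58, and 14 of them were called higher in KO-labelled tumors. The 8 without a core had a median of 0.60, and 7 of them were called higher. A match is a description of letters and says nothing of what binds there.

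**Figure D1:**
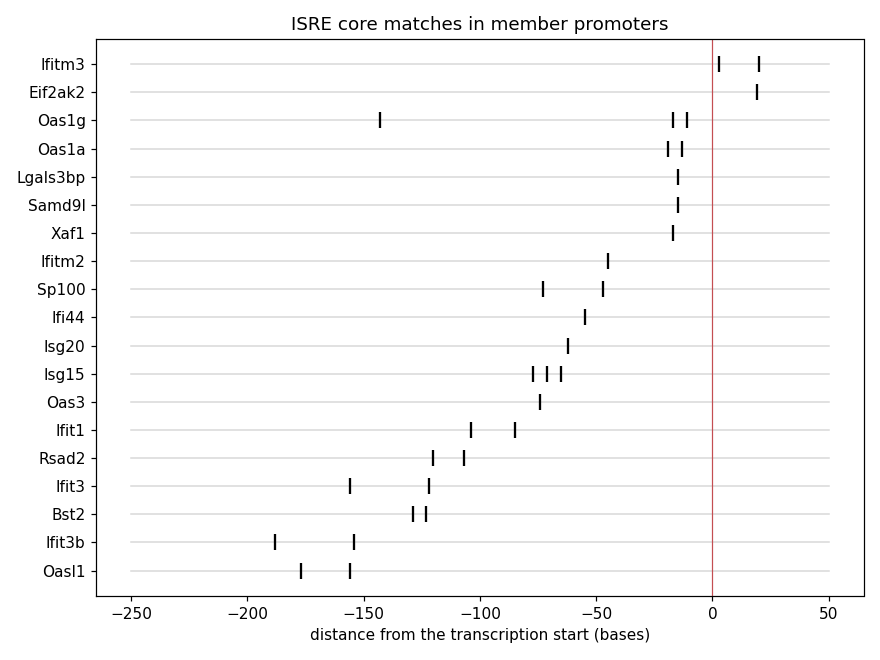
Position of each ISRE core (TTTCNNTTT, either strand) in the 300-base promoter windows of the 19 members that hold one. The horizontal axis gives the distance in bases of the core's first base from the RefSeq start site (red line), and each row is a gene. Most of the 31 matches lie upstream of the start site, and those of Ifitm3 and Eif2ak2 lie just after it. The single core of Sp100 is drawn at both -47 and -73, measured from different RefSeq start sites, and is counted once among the 31.

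Most of the antiviral genes were higher in the KO-labelled tumors, by less than 2-fold. Of the 36 members, 25 were called higher (limma on log2(score + 1), adjusted p under 0.05), none was called lower and 11 passed in neither direction. The median log2 difference over the 36 was 0.57, a 1.48-fold difference, against a median of -0.00056 over all genes tested. In the same fit 17.5% of all genes were called higher and 18.2% lower. Of all calls 49.0% were thus higher, against 38.6% after scaling the tumors to equal totals, where 21 members were called higher. All 5 KO-labelled tumors lay above all 5 WT tumors in 13 members, against 11.9% of all genes, and in no member did they all lie below. Only Ifitm1 was called higher by more than 2-fold, as 2.68% of all genes were. Fold changes are on the log2(score + 1) scale throughout. In a whole tumor, a change in the number of cells of a type and a change in the RNA per cell cannot be told apart.

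**Figure D2:**
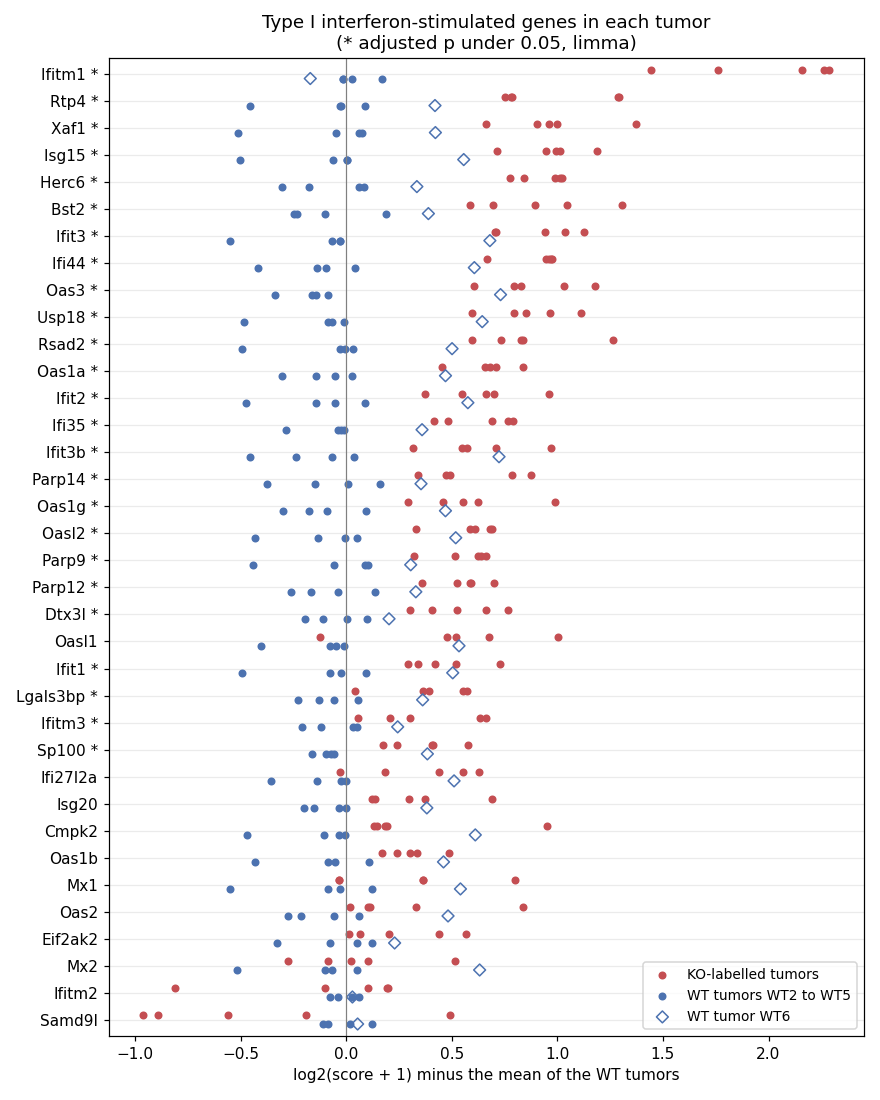
Each of the 36 members by tumor, as log2(score + 1) minus the mean of the 5 WT tumors, ordered by the difference between the groups. Red points are KO-labelled tumors, blue points the WT tumors WT2 to WT5, and the open diamond WT6. An asterisk marks the 25 members called higher. WT6 lies among or next to the KO-labelled tumors in most genes, and below every KO-labelled tumor in 13.

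Ifitm1 stood apart from the other members. It belongs with Ifitm2 and Ifitm3 to a family of small membrane proteins that hinder the fusion of viruses with cell membranes, encoded side by side on mm10 chromosome 7 (140954837 to 141010770). Ifitm1 (ENSMUSG00000025491.14) scored 1408, 797, 1311, 1432 and 993 in KO-labelled tumors, against 329, 290, 290, 298 and 260 in WT tumors. The groups lay far apart, and WT6, high in most members, was the lowest tumor of all for this gene. The means were 1188 ± 280.2 in KO-labelled tumors and 293.4 ± 24.6 in WT tumors (SD, n = 5 each), a 3.95-fold difference (log2 difference 1.98, SE 0.15, adjusted p = 2.22e-06). It ranked 53 among all genes by size of increase.

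The neighbours of Ifitm1 in the set, Ifitm3 and Ifitm2, behaved otherwise. Ifitm6, a relative outside the set, was called higher too, with means of 149.4 in KO-labelled tumors and 67.8 in WT tumors. Its log2 difference was 1.11 (SE 0.19, adjusted p = 0.000761), and every KO-labelled tumor was above every WT tumor. Ifitm3, the member of the family best known for restricting influenza virus, scored 10845, 9137, 13644, 13933 and 10137 in KO-labelled tumors, against 7598, 8997, 8084, 9126 and 10413 in WT tumors. The groups overlap through WT6, and the 1.29-fold difference passed narrowly (log2 difference 0.37, SE 0.13, adjusted p = 0.0359). Leaving out WT2, WT3, WT4, WT5, KO3 or KO4 in turn raised its adjusted p to between 0.0562 and 0.0929. Ifitm2 scored 3105, 1645, 3309, 3305 and 2689 in KO-labelled tumors, against 2740, 3007, 2941, 2807 and 2947 in WT tumors. The KO-labelled tumors lie on both sides of the narrow WT range, KO2 far below it, and the log2 difference of -0.08 (SE 0.16, adjusted p = 0.711) turned to 0.099 without KO2. The count of Ifitm2 is uncertain, since 42.0% of its 75-base windows also occur in another gene. Most of them (33.4%) occur in Gm45717, a gene model whose exons overlap those of Ifitm2 on the same strand. Whether reads there were counted for Ifitm2 depends on the annotation used, which is not given.

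The ISG15 system rose as a whole, with all 3 of its members called higher. Isg15 (ENSMUSG00000035692.6, mm10 chromosome 4, 156199424 to 156200818, minus strand) encodes a ubiquitin-like protein that is joined to other proteins during infection. Its score was 3686, 4530, 5106, 4476 and 4333 in KO-labelled tumors, against 1583, 2253, 2149, 2250 and 3302 in WT tumors. No KO-labelled tumor fell to the level of WT6, the highest WT tumor, and the means of 4426 ± 507.9 in KO-labelled tumors and 2307 ± 621.6 in WT tumors (SD, n = 5 each) differed 1.96-fold (log2 difference 0.97, SE 0.15, adjusted p = 0.000462). Herc6, in mice the main ligase that attaches Isg15, scored 2309, 1991, 2345, 2084 and 2359 in KO-labelled tumors, against 941, 1210, 1230, 1029 and 1465 in WT tumors. These groups are clear of each other, and the 1.90-fold difference (SE 0.11 on the log2 scale) had the smallest adjusted p among the members after Ifitm1, 5.68e-05. Usp18 removes Isg15 from proteins and also damps signalling at the receptor chain Ifnar2. It scored 1531, 1825, 1976, 1756 and 2186 in KO-labelled tumors, against 723, 967, 955, 1006 and 1583 in WT tumors, so that only WT6 reached the KO-labelled range (1.82-fold, adjusted p = 0.0017).

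All 4 IFIT genes of the set, which lie in tandem on mm10 chromosome 19 (34550694 to 34650009), were called higher. Outside the set, the related Ifit1bl1 (log2 difference 0.35, adjusted p = 0.228) and Ifit1bl2 (0.18, adjusted p = 0.669) were not called. IFIT proteins bind viral RNA and hold back its translation. Ifit3 scored 4114, 4127, 5495, 4845 and 5179 in KO-labelled tumors, against 1719, 2468, 2406, 2467 and 4041 in WT tumors. Each KO-labelled tumor was above each WT tumor, with WT6 just below KO1 and KO2 (1.87-fold, log2 difference 0.90, SE 0.18, adjusted p = 0.00178). Ifit2 scored 4468, 3558, 4026, 4358 and 5358 in KO-labelled tumors, against 1981, 2927, 2651, 2494 and 4101 in WT tumors (1.57-fold, adjusted p = 0.00833). WT6 was above KO2 and KO3 there. Ifit1, which recognizes RNA whose cap lacks the methylation of host messages, scored 3143, 3253, 3439, 3684 and 4260 in KO-labelled tumors, against 1823, 2739, 2522, 2433 and 3644 in WT tumors. It differed by 1.38-fold (adjusted p = 0.03), and the call was lost without WT2, WT4, WT5, KO3, KO4 or KO5 (adjusted p 0.0505 to 0.0667). Ifit3b, the mouse copy of Ifit3, scored 852 to 1341 in KO-labelled tumors, against 498 to 1130 in WT tumors (1.54-fold, adjusted p = 0.0208), and lost the call without WT2 (0.0547) or WT4 (0.0543). Ifit3 and Ifit3b are uncertain as separate genes, because 41.1% of the 75-base windows of Ifit3 and 35.7% of those of Ifit3b are shared.

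Of the 7 oligoadenylate synthetase genes of the set, 4 were called higher and 3 passed in neither direction. These enzymes make short oligoadenylates on double-stranded RNA, a signal for RNA decay, while Oasl1 and Oasl2 carry ubiquitin-like domains. Oas3 scored 1909, 1420, 1619, 1655 and 2114 in KO-labelled tumors, against 738, 877, 833, 843 and 1548 in WT tumors. Of the WT tumors WT6 alone lay in the KO-labelled range, above KO2, while the other 4 WT tumors stayed far below (1.85-fold, log2 difference 0.89, SE 0.18, adjusted p = 0.00192). Oas1a scored 1303, 1498, 1523, 1554 and 1700 in KO-labelled tumors, against 769, 916, 860, 968 and 1316 in WT tumors (1.59-fold, adjusted p = 0.00139). Oas1g (1.5-fold, adjusted p = 0.0105) and Oasl2 (1.49-fold, adjusted p = 0.00718) rose by like amounts, and Oas1a and Oas1g share 47.6% and 36.9% of their 75-base windows with other genes, mainly each other.

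The remaining synthetases of the set did not pass, nor did Oas1c outside it (log2 difference 0.33, SE 0.16, adjusted p = 0.136). Oasl1, which in mice restrains the translation of Irf7, scored 850, 560, 874, 973 and 1223 in KO-labelled tumors, against 461, 590, 577, 606 and 883 in WT tumors (log2 difference 0.51, SE 0.20, adjusted p = 0.0582). KO2 lay among the WT tumors, and without KO2 the adjusted p was 0.0103, without WT6 0.0209. Oas2 had a log2 difference of 0.28 (SE 0.17, adjusted p = 0.208). Oas1b, the flavivirus resistance gene that common laboratory strains carry in a truncated form, had 0.31 (SE 0.14, adjusted p = 0.109) and passed without WT6 (0.0224).

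Neither Mx gene was called. Mx1 and Mx2 encode dynamin-like GTPases that trap viral ribonucleoprotein, and laboratory mice such as C57BL/6 carry defective forms. Mx1 scored 1970, 1493, 1493, 1968 and 2659 in KO-labelled tumors, against 1043, 1497, 1666, 1442 and 2225 in WT tumors (log2 difference 0.29, SE 0.19, adjusted p = 0.254). Mx2 scored 423, 325, 370, 400 and 562 in KO-labelled tumors, against 275, 375, 407, 367 and 610 in WT tumors (log2 difference 0.06, SE 0.19, adjusted p = 0.839). For Mx2 the highest tumor of all was WT6, the ranges of the groups lay almost on top of each other, and the sign turned without WT2 (-0.072), without the column KO5 (-0.058) or after scaling to equal totals (-0.0013). The smallest score per kilobase among the members was that of Mx2.

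All 4 genes of the PARP-DTX3L group were called higher, with a median difference of 1.47-fold. Parp9 and Dtx3l form a complex that attaches ubiquitin and ADP-ribose, and Parp12 and Parp14 attach single ADP-ribose units to proteins. Parp12 scored 3583, 3062, 3882, 3598 and 3436 in KO-labelled tumors, against 1992, 2328, 2621, 2125 and 3001 in WT tumors (1.47-fold, log2 difference 0.55, SE 0.11, adjusted p = 0.00181). Dtx3l scored 2982, 2162, 2517, 2318 and 2770 in KO-labelled tumors, against 1531, 1754, 1873, 1620 and 2015 in WT tumors (1.45-fold, adjusted p = 0.00151). Groups did not overlap in Parp12, Dtx3l or Parp9 (1.47-fold, adjusted p = 0.00375). Parp14 scored 5330, 4281, 3908, 4345 and 5666 in KO-labelled tumors, against 2378, 3107, 3454, 2784 and 3948 in WT tumors (1.51-fold, adjusted p = 0.0052), with WT6 just above KO3. Parp14, Dtx3l and Parp9 are neighbours on mm10 chromosome 16 (35832874 to 35972605). Dtx3l and Parp9 overlap by 682 bases on opposite strands, and since the strand setting of the counting is not given, part of their reads may be shared.

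**Figure D3:**
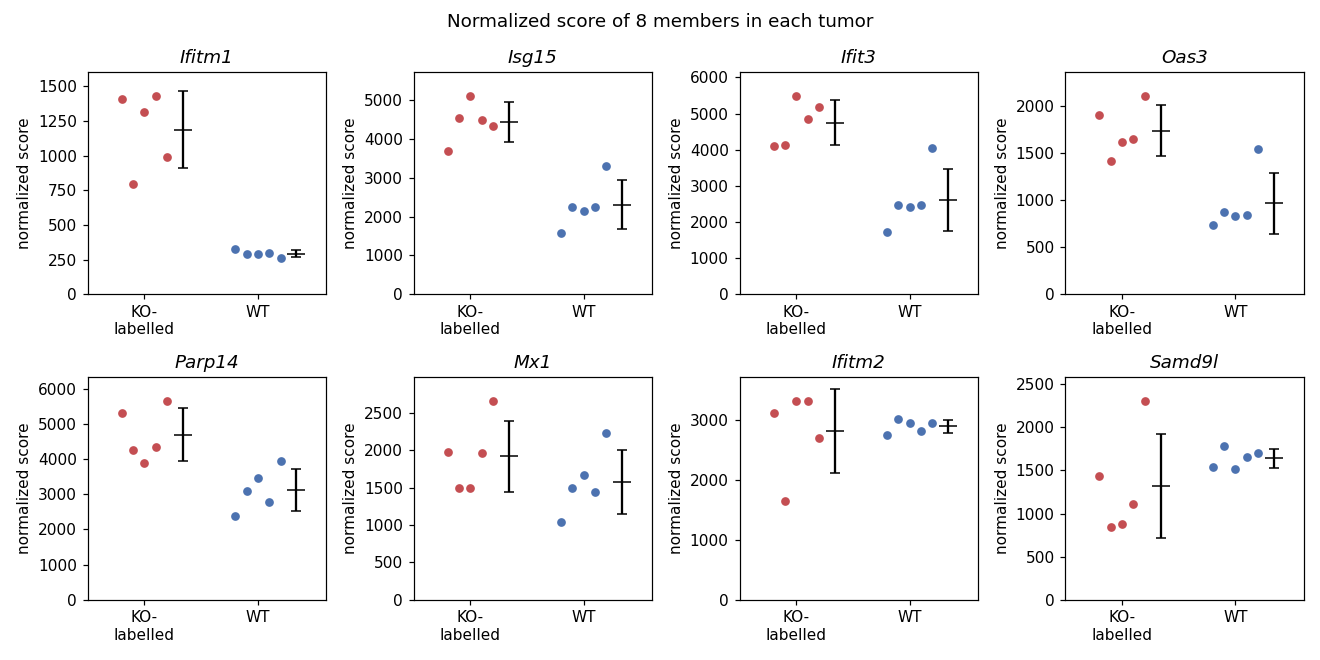
Normalized score of 8 members in each tumor, KO-labelled tumors (red) left of WT tumors (blue), with points in column order and black bars for mean ± SD (5 tumors each). Each vertical axis starts at 0 and has its own scale. Ifitm1, Isg15 and Ifit3 separate the groups, WT6 (the last blue point) reaches the KO-labelled range in Oas3, Parp14 and Mx1, and Samd9l has 4 of 5 KO-labelled tumors below every WT tumor.

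The other effectors were split. Bst2, the tetherin that holds budding virus on the cell surface, scored 5897, 6774, 8987, 7515 and 5464 in KO-labelled tumors, against 3071, 3398, 3094, 4145 and 4767 in WT tumors (1.87-fold, log2 difference 0.91, SE 0.15, adjusted p = 0.000609). Rsad2, or viperin, makes a nucleotide analog that ends viral RNA chains. It scored 2744, 3020, 3227, 3248 and 4365 in KO-labelled tumors, against 1289, 1807, 1778, 1856 and 2572 in WT tumors (1.80-fold, adjusted p = 0.00145). In both genes every KO-labelled tumor was above every WT tumor. Sp100, a component of nuclear bodies that represses incoming viral DNA, rose 1.29-fold (adjusted p = 0.0209), with 1688 to 2229 in KO-labelled tumors, against 1335 to 1951 in WT tumors, and lost the call without WT2, WT3 or WT5 (adjusted p 0.0501 to 0.0568).

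Cmpk2, a mitochondrial nucleotide kinase, lies 12752 bases from Rsad2 on mm10 chromosome 12 and was not called. It scored 1680, 1611, 1626, 1671 and 2842 in KO-labelled tumors, against 1060, 1435, 1367, 1465 and 2245 in WT tumors (log2 difference 0.32, SE 0.19, adjusted p = 0.21). In each group a single tumor, KO5 or WT6, stood far above the other 4. Eif2ak2, the kinase PKR that stops translation on double-stranded RNA (log2 difference 0.26, adjusted p = 0.125), and Isg20, an exonuclease (0.32, adjusted p = 0.0749), did not pass either. Without WT6, Isg20 did (adjusted p = 0.0233).

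Samd9l, a restriction factor for poxviruses, had the most negative log2 difference of the members, -0.42 (SE 0.22, adjusted p = 0.153). Its score was 1439, 842, 883, 1112 and 2308 in KO-labelled tumors, against 1545, 1785, 1521, 1660 and 1703 in WT tumors. KO1 to KO4 were below every WT tumor and KO5 above every one. Without the column KO5 the log2 difference was -0.65 (adjusted p = 0.00273), so for this gene 1 library decides the call.

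The last 6 members are induced genes of less defined antiviral action, and 5 of them were called higher. Rtp4, a chaperone of cell-surface receptors, scored 2048, 2093, 2970, 2987 and 2102 in KO-labelled tumors, against 887, 1295, 1194, 1196 and 1630 in WT tumors (1.97-fold, log2 difference 0.98, SE 0.16, adjusted p = 0.000506). Xaf1, a pro-apoptotic partner of Xiap, scored 1868, 1520, 2483, 1918 and 1799 in KO-labelled tumors, against 672, 1012, 929, 1002 and 1287 in WT tumors (1.97-fold, adjusted p = 0.000509). The groups also did not overlap in Ifi44 (1.87-fold, adjusted p = 0.00064) and Ifi35 (1.55-fold, adjusted p = 0.00112). Lgals3bp, a secreted glycoprotein that binds galectins, scored 8439 to 12197 in KO-labelled tumors, against 6995 to 10539 in WT tumors (1.30-fold, adjusted p = 0.0286). It lost the call without WT2, WT3, WT4, KO1, KO3 or KO5 (adjusted p 0.0508 to 0.0778). Ifi27l2a, a small mitochondrial protein, was not called (log2 difference 0.36, SE 0.16, adjusted p = 0.0959), and passed without WT6 (0.0187) or KO2 (0.0405).

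Levels differed widely between members when divided by exonic length. Ifitm3 had the highest, 17020 score units per kilobase in KO-labelled tumors and 13044 in WT tumors. Bst2 (7672 per kilobase in KO-labelled tumors, 4092 in WT tumors) and Isg15 (5855 per kilobase in KO-labelled tumors, 3052 in WT tumors) followed in the KO-labelled tumors. Mx2, at 115.1 per kilobase in KO-labelled tumors and 112.6 in WT tumors, had the lowest, next to Oas1b at 143.0 per kilobase in KO-labelled tumors and 117.5 in WT tumors.

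The members moved together within the WT group. WT6 was the highest WT tumor in 33 of 36 members (91.7%, against 21.9% of all genes), and WT2 was the lowest in 31 (86.1%, against 20.1% of all genes). The median member was 0.58 higher on the log2 scale in WT6 than in the mean of the other 4 WT tumors, a gap of about the size of the median difference between the groups (0.57), while the median of all genes for that gap was 0.0044. WT3, WT4 and WT5 lay close together. The median SD of the members on the log2 scale was 0.31 over all 5 WT tumors, against 0.115 for all genes. With WT2 and WT6 set aside it was 0.095, against 0.107 for all genes. Those tumors were set aside for being extreme in these same members, so a smaller SD follows from that choice. Among the KO-labelled tumors it was 0.23, near the 0.225 of all genes. These counts describe a few tumors and are not independent across genes.

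Set against WT6 alone, the KO-labelled tumors were only slightly higher. The mean of the KO-labelled tumors exceeded WT6 in 23 of 36 members, with a median log2 gap of 0.12, against a gap of 0.66 to the mean of the other WT tumors. Over all genes these medians were -0.0022 and -0.0016. All 5 KO-labelled tumors were above WT6 in 13 members, 4 in 6 members, 3 in 5, 2 in 4, 1 in 7 and none in 1. The shares of all genes for these counts against WT6, and for the 23 of 36, were not worked out, so the counts have no baseline. WT6 was picked as the WT tumor highest in most of these members, which by itself makes the gap to it small. Without WT6, every KO-labelled tumor was above every remaining WT tumor in 27 members (13.2% of all genes), and 29 members were called higher. Without WT2, 20 were. In each of these fits 14.6% of all genes were called higher. The labels give no batch, date or cage that sets WT6 or WT2 apart.

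By tumor, the median deviation of the 36 members from the WT mean on the log2 scale was 0.58, 0.37, 0.57, 0.60 and 0.79 in the KO-labelled tumors, against -0.36, -0.01, -0.05, -0.03 and 0.47 in the WT tumors. KO5 was the highest KO-labelled tumor in 21 members (58.3%, against 20.5% of all genes) and KO2 the lowest in 20 (55.6%, against 20.6%). WT6 thus exceeded KO2 on this measure and no other KO-labelled tumor. Among 67 other interferon-stimulated genes that were measured, WT6 was again the highest WT tumor in 58 (86.6%), and WT2 the lowest in 44 (65.7%).

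**Figure D4:**
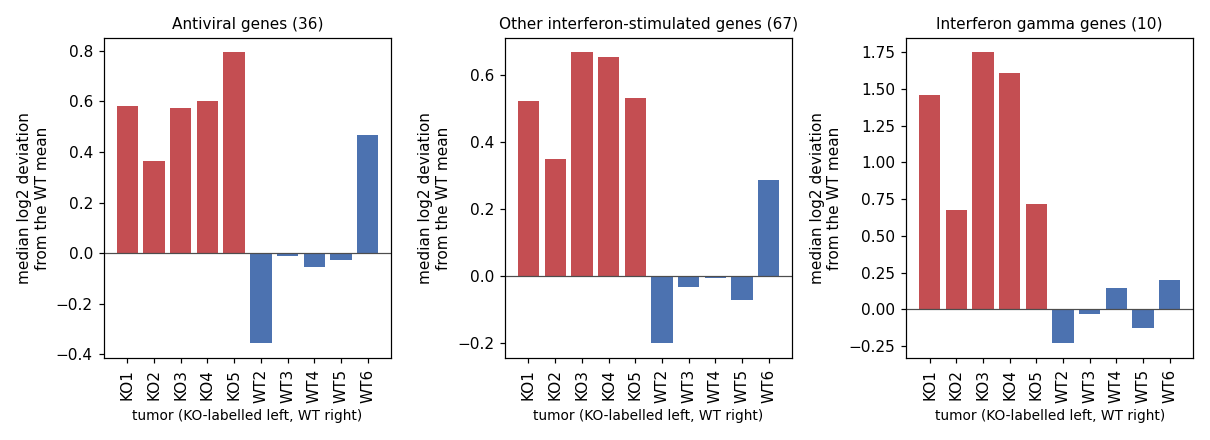
Median log2 deviation from the WT mean in each tumor, for the 36 antiviral genes, 67 other interferon-stimulated genes and 10 genes of the interferon gamma list. Bars are tumors, KO-labelled in red on the left and WT in blue on the right, and each panel has its own vertical scale. WT6 stands out in the first 2 panels, and KO5 is highest in the first and near the lowest KO-labelled tumor in the third.

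The interferons themselves gave no reading. All 12 type I interferon genes listed (Ifnb1, 8 Ifna genes, Ifnk, Ifne and Ifnz) are at 0 in every tumor, as are 11495 genes in all. No gene above 0 in any tumor had a mean below 9.8, so these zeros were not read as a lack of expression. Of the 33 receptor, signalling and sensor genes measured, 18 were called higher, against 17.5% of all genes, and 12 passed in neither direction. The 3 called lower, against 18.2% of all genes, were Ifnar1, Tyk2 and Mavs. With WT2, WT4, WT6 or KO3 left out, 1 was called lower. The receptor chains went opposite ways. Ifnar1 scored 2220, 1872, 1872, 1976 and 2258 in KO-labelled tumors, against 2494, 2428, 2655, 2605 and 2599 in WT tumors, with no overlap (log2 difference -0.33, SE 0.07, adjusted p = 0.00388). Ifnar2 scored 1300, 1517, 1751, 1696 and 1349 in KO-labelled tumors, against 1288, 1198, 1130, 1243 and 1311 in WT tumors (log2 difference 0.29, SE 0.09, adjusted p = 0.0247). Of the receptor's kinases, Tyk2 fell (-0.24, adjusted p = 0.0411) and Jak1 did not pass (-0.05, SE 0.09, adjusted p = 0.663).

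The ISGF3 genes Stat2 and Irf9 were higher. Stat2 averaged 4329 in KO-labelled tumors and 3112 in WT tumors (log2 difference 0.49, SE 0.12, adjusted p = 0.00839), and Irf9 had a log2 difference of 0.42 (adjusted p = 0.00421). Irf7, the factor that amplifies interferon production, had 0.72 (adjusted p = 0.00436). Irf1, an early target of interferon signalling, had 0.97 (adjusted p = 0.00129), while Irf3, which is activated by phosphorylation, did not pass (0.15, adjusted p = 0.143). Among the regulators that limit the pathway, Socs1 (1.09, adjusted p = 0.00132), Socs3 (0.66, adjusted p = 0.000163) and the phosphatase Ptpn6 (0.73, adjusted p = 0.00224) rose. Ptpn11 (-0.06), Pias1 (-0.18) and Pias4 (0.18) passed in neither direction. The nucleic acid sensor Zbp1 (1.15, adjusted p = 0.000106) and the kinase Ikbke (0.69, adjusted p = 3.67e-05), both interferon-inducible, were with Socs3 among the genes of this list with the smallest p.

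**Figure D5:**
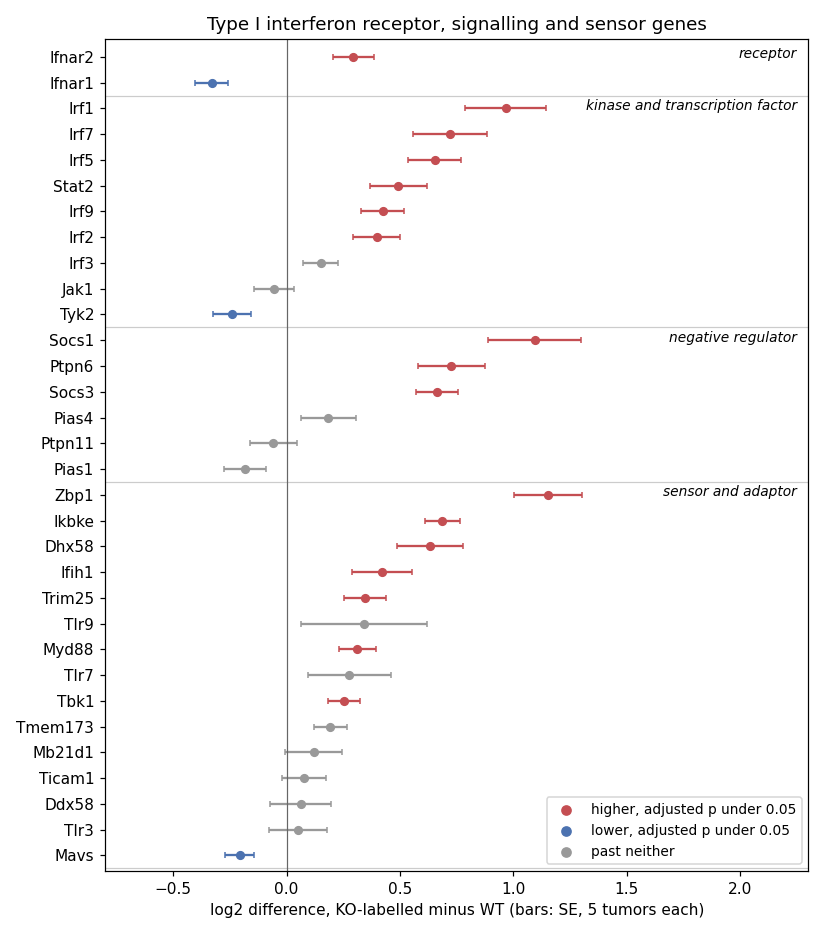
Log2 difference (KO-labelled minus WT, horizontal axis) of 32 of the 33 measured receptor, signalling, regulator and sensor genes, grouped by role, with SE bars (5 tumors each). Red marks genes called higher (17 of those drawn), blue genes called lower (3) and grey those that passed in neither direction (12). The genes called lower are Ifnar1, Tyk2 and Mavs, and Zbp1, Socs1 and Irf1 lie farthest right.

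Other interferon-stimulated genes were also mostly called higher. Of the 67 measured, 44 were called higher and 1 lower, against 17.5% and 18.2% of all genes. In 30 every KO-labelled tumor was above every WT tumor, against 11.9% of all genes. Their median log2 difference was 0.53. The largest were those of Cd274, the checkpoint ligand PD-L1 (1.84, adjusted p = 1.59e-05), Apol9a (1.27, adjusted p = 0.00012), Ms4a4c (1.27, adjusted p = 0.000106) and Ly6a (1.20, adjusted p = 0.000218). At the other end stood Slfn9 (-0.38, adjusted p = 0.441), Ifi27 (-0.30, adjusted p = 0.0471) and Mov10 (-0.05, adjusted p = 0.731), of which only Ifi27 was called. Its call was lost when any tumor but WT5 or KO2 was left out.

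Genes of the interferon gamma list had a median log2 difference of 1.23, and the tumors stood in another order. The list holds Ifng and its receptor chains Ifngr1 and Ifngr2 beside response genes. It was chosen with earlier results of these data known, so its median depends on that choice. Interferon gamma is made by T and NK cells and shares part of its signalling with the type I pathway. Ifng scored 169, 165, 387, 343 and 113 in KO-labelled tumors, against 30, 34, 74, 54 and 50 in WT tumors (log2 difference 2.17, SE 0.34, adjusted p = 0.000373). Of the 10 genes measured, 7 were called higher, against 17.5% of all genes. The other 6 were Nos2 (4.40), Ido1 (2.63), Gbp2b (2.62), Gbp4 (1.62), Cxcl9 (0.84) and Irgm2 (0.48), in log2 difference, and Ciita (-0.10), Ifngr1 (-0.04) and Ifngr2 (-0.18) passed in neither direction. The median deviation of the 10 genes from the WT mean was 1.46, 0.68, 1.75, 1.61 and 0.71 in the KO-labelled tumors, against -0.23 to 0.20 in the WT tumors. KO5, highest for the antiviral members, was among the lowest of the KO-labelled tumors here together with KO2. In WT6 Ifng lay inside the range of the other WT tumors, but the WT6 median on this list was the highest of the WT tumors (0.20, against 0.14 in WT4). WT6 was the highest WT tumor in 3 of the 10 genes (30%, against 21.9% of all genes), and WT4 in 4 (40%, against 19.1% of all genes).

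Leukocyte markers moved with the groups. For the counts of this paragraph, 17.5% of all genes were called higher and 18.2% lower. All 5 pan-leukocyte markers were called higher, with summed scores of 23094 to 33123 in KO-labelled tumors, against 15269 to 17946 in WT tumors, and WT6 had the highest WT sum. Of the T and NK cell markers 6 of 7 were higher (1918 to 3239 in KO-labelled tumors, against 1065 to 1410 in WT tumors, 1245 in WT6). Of the macrophage and monocyte markers 4 of 7 were higher (32233 to 55678 in KO-labelled tumors, against 29708 to 37161 in WT tumors), and WT6, at 37161, was again the highest WT tumor. Lyz2 is the largest part of these sums (means 20801 in KO-labelled tumors, 17636 in WT tumors, and 21101 in WT6) and was not called (adjusted p = 0.401). Adgre1 and Csf1r were not called either, and Fcgr1, called higher, is also counted among the other interferon-stimulated genes. Plasmacytoid dendritic cells are a main source of type I interferon, and of their 6 markers 1 was higher and 3 were lower. The sums were 4206 to 5478 in KO-labelled tumors, against 5529 to 7422 in WT tumors. These sums rest almost wholly on Tcf4 (means 2687 in KO-labelled tumors, 4769 in WT tumors) and Lair1 (2006 and 1299). Siglech, Ccr9, Klk1 and Cox6a2 had means of at most 45 in either group, so the sums say little of them. Neutrophil markers gave 1 of 3 higher (618 to 1039 in KO-labelled tumors, against 371 to 525 in WT tumors), with Cxcr2 at 0 throughout. Of the fibroblast markers 5 of 6 were lower (72421 to 102779 in KO-labelled tumors, against 144516 to 161959 in WT tumors), of the endothelial markers 2 were higher and 3 lower, and no skeletal muscle marker of 4 was called (1641 to 3548 in KO-labelled tumors, against 1166 to 3315 in WT tumors). KO5 was the lowest KO-labelled tumor and WT6 the lowest WT tumor in all 4 muscle markers, with sums of 1641 in KO5 and 1166 in WT6. Of the 8 melanoma markers Mlana, Pmel, Tyr, Tyrp1, Dct and Sox10 are at 0 in every tumor, so the labelled melanoma was not checked by its defining genes, while S100b was lower and Mitf passed in neither direction. The part of any of these cell types in the differences of the antiviral genes was not tested.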

How the data were processed

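Directional poly(A) libraries, 1 per tumor, were sequenced as single 75-base reads. The study's methods and the submitters' notes name FastQC for read quality, STAR for alignment to mm10, featureCounts for counting per gene, and edgeR within SARTools for the normalization and test by the authors. No source used here gives versions, annotation or strand setting. The deposited table holds a score per gene and tumor, the normalized count that the authors rounded to a whole number. No raw counts were used, so precision was judged from the spread between tumors alone, and p-values measure that spread only.

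Scores were tested as log2(score + 1) in limma 3.58.1 (R 4.3.3), with genotype as the only term over all 10 tumors, eBayes with trend, and p-values adjusted by Benjamini-Hochberg over the 12926 genes above 0 in any tumor (two-sided, threshold 0.05). The test was checked on simulated data with independent genes and the WT spread in both groups. That check does not cover genes that move together. Nor does it cover the wider spread of the KO-labelled tumors (median SD 0.225 over all genes, against 0.115 in WT tumors). Members and gene lists were chosen with earlier results of these data known, and all members are named. From the signalling list, the ligands, receptor chains, kinases, ISGF3 factors, Irf1, Irf3, Irf7, negative regulators and 4 smallest p are named. From the other interferon-stimulated genes these are the 4 largest and 4 smallest differences, and Ifitm6, Ifit1bl1, Ifit1bl2 and Oas1c as relatives of members. The whole interferon gamma list is named. Some genes that these rules take are counted but not reported here. Coordinates follow GENCODE M21 (mm10) and promoters RefSeq (GRCm38.p6), read with Python 3.11.15 and pandas 2.3.3. Alternatives covered pseudocounts, filters, scaling, sample weights and each tumor left out.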

Additional observations from a re-analysis of the deposited data

Results flagged for a closer look

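In 6 of 134 groups of 5 tumors checked, a single tumor stood apart from the other 4 by more than 0.71 of the group's whole range, and chance alone marks about 1 group in 20. WT6 was far above the other WT tumors for Oas3 (1548, against 738 to 877), Sp100 (1951, against 1335 to 1438) and Irf7 (5931, against 3272 to 3772). WT2 was far above them for the interferon gamma receptor chain Ifngr1 (2926, against 2548 to 2650). Among the KO-labelled tumors, KO2 was far below the others for Ifi44 (1690, against 2047 to 2091), and KO5 far above them for Cmpk2 (2842, against 1611 to 1680).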

How the results depend on the processing

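The number of members called higher was 25 (shares in parentheses are of all genes, here 17.5%). It was 20 to 29 when each tumor was left out in turn (13.9% to 19.6%). After scaling to equal totals it was 21 (13.9%), and without the columns KO4 and KO5 it was 20 (16.9%). Scaling to equal totals moved the median of all genes to -0.058 and the share of higher among all calls to 38.6%, against 49.0%. No member was called lower, except 1 (Samd9l) without KO5 or without KO4 and KO5, so leaving out single tumors gave 0 to 1. Of the signalling genes 3 were lower, against 1 with no filter and 1 to 3 with single tumors left out. Of the other interferon-stimulated genes 1 was lower, against 2 after equal totals, 0 without the trend, 0 without KO4 and KO5, and 0 to 1 with single tumors left out. With single tumors left out, the log2 difference of Mx2 was -0.072 to 0.214 and that of Ifitm2 -0.153 to 0.099. Mx2 turned to -0.0013 after equal totals, -0.086 without KO4 and KO5, -0.072 without WT2 and -0.058 without KO5, and Ifitm2 to 0.099 without KO2. Requiring a C after the ISRE core left 44.4% of the matched members with a core, against 3.99% of all genes.

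Among the tumors with a settled replicate number, the groups share the numbers 2 and 3. Correlations between the deviations of same-numbered tumors were 0.091 and 0.106, against 0.098 and 0.020 between differently numbered ones. These pairs were therefore read as sharing a number only. The sample titles share further numbers, but the knockout columns of those are not settled, so such pairs were not checked. With the 4 tumors numbered 2 and 3 and the replicate block, 26 members were called higher, 1 lower and 1 signalling gene lower. In that fit 14.8% of all genes were called higher. Without the block the same tumors gave 20 higher, 1 lower, 1 signalling gene lower and 0 other interferon-stimulated genes lower. Of all genes 10.9% were called higher there. Over all alternatives, the members' own calls and signs stayed as reported in 697 of the values, lost the call in 41, gained it in 13 and changed sign in 5. Without raw counts, counting error cannot be set apart from the spread between tumors.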
